A study of Gallus gallus with 9 samples.

Results

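Solute carriers (SLC genes) are membrane transporters, and 161 of them were abundant enough in chick retinal pigment epithelium (RPE) to be described here, out of 16635 genes in the table. They are the genes with a symbol of the form *SLC*, family number, A and member number whose normalized count averaged at least 100 over all 9 libraries. Of 219 genes with such a symbol, 56 averaged less, and 2 carriers of the pigment granule (*SLC45A2* and *SLC24A5*) were left out by name. The level over all libraries thus chose the members, and the level is given below as a description only. Near the limit, *SLC66A3* (mean 101) lay just inside, and *SLC45A3* (99.4) and *SLC16A5* (97.1) just outside. Because the mean was taken over all groups, 142 members averaged at least 100 in every group, and the other 19 passed although at least 1 group lay under 100. In such genes a difference between groups is partly a product of the limit.

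RNA was taken by laser capture from sections of White Leghorn chick eyes, with 3 embryos and 3 libraries in each of 3 groups. In the rRPE (reprogrammed RPE) group the neural retina had been surgically removed at embryonic day 4 (E4), an FGF2-soaked bead placed in the eye, and the RPE beside the bead collected 6 h later. In the t-rRPE (transiently reprogrammed RPE) group the retina was removed without FGF2, with the same 6 h interval. The third group was the RPE of intact E4 eyes. No group had a bead without FGF2, so the bead, the factor and the place of capture cannot be told apart in rRPE, nor can the injury and the 6 h of growth in either operated group.

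The RPE is a single sheet of polarized cells that stands between the choroidal blood supply and the neural retina, and many nutrients, ions and wastes of the outer retina cross it through transporters on its apical or basal side. Glucose passes through facilitative carriers, lactate is carried with protons, bicarbonate and chloride carriers move fluid and set pH, and amino acids, vitamins and metals each have families of their own. The SLC25 family differs from the others in that nearly all of its members sit in the inner membrane of mitochondria.

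The members came from 42 families and were sorted by family into substrate classes. There were 33 mitochondrial carriers (SLC25), 29 genes for amino acids and peptides, 24 for metals, 24 for inorganic ions and pH, 14 for vitamins, choline and lipids, 10 for sugars and polyols, 8 for organic anions and cations, 6 for monocarboxylates, 5 for amines, taurine, creatine and glycine (SLC6), 3 for nucleosides, 3 for nucleotide sugars and 2 for vesicular transmitters. Their means ran from 101 to 89982 normalized counts, with a median of 912. These counts are not scaled by gene length, so they are compared between groups and not between genes. All members together took between 1.33% and 1.60% of the counts of a library.

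The libraries held 26167206 to 45563924 reads on genes, and 13327 to 14077 genes had a read. All 15 RPE marker genes searched for were found, and their summed normalized count was 272760 to 433651 in rRPE, 348482 to 478369 in t-rRPE and 351245 to 398626 in RPE, so the captured tissue carried RPE transcripts in every library. Single genes differed within these sums. In rRPE against RPE the limma test given below called 1 of the 15 higher and 2 lower. The libraries did not overlap for 9 (60%), against 18.6% of all genes. In t-rRPE against RPE it called 1 higher and 1 lower, and 5 (33.3%) did not overlap, against 15.1%. In rRPE against t-rRPE it called 1 lower, and 3 (20%) did not overlap, against 12.5%. Of all genes, it called 1.03%, 0.671% and 0.0544% in these comparisons. Summed counts of 15 lens genes were 23002 to 52431 in rRPE and 49478 to 411082 in t-rRPE, against 1014 to 1665 in RPE. Those of 11 endothelial genes were 4914 to 5459 in rRPE and 3448 to 5889 in t-rRPE, against 7019 to 12210 in RPE, and *CDH5* fell in both operated groups. Sums of 13 neural retina genes were 27207 to 28060 in rRPE and 23066 to 27044 in t-rRPE, against 16958 to 24841 in RPE. Sums of 16 genes of the periocular mesenchyme were 12161 to 14564 in rRPE and 9758 to 12188 in t-rRPE, against 13076 to 18559 in RPE, so that t-rRPE lay under RPE and rRPE overlapped with it. Sums of 10 erythroid genes overlapped in all comparisons (211220 to 535711 in rRPE, 146253 to 390301 in t-rRPE, 277284 to 427748 in RPE). In bulk RNA, fewer cells of a type and less RNA per cell cannot be told apart.

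Few of the abundant carriers passed the test. A differentially expressed gene (DEG) was called where the limma p, adjusted by the method of Benjamini and Hochberg over 16535 genes, was at most 0.05 and the log2 fold change (log2FC, on the log2(normalized count + 1) scale) reached 1 in either direction. In rRPE against RPE, *SLC39A12* rose and *SLC6A13* fell, 2 of 161 members (1.24%), where 1.03% of all genes and 1.35% of genes with a mean of at least 100 were called. *SLC39A12* is 1 of the 19 members with a group mean under 100 and passed the limit through the operated groups, where it was high. Among the 142 members with at least 100 in every group, limma called 0 higher and 1 lower in rRPE. In t-rRPE against RPE, *SLC1A7* rose, 1 of 161 members (0.621%), where the background was 0.671% and 0.877%. In rRPE against t-rRPE no member was called, where the background was 0.0544% and 0.0839%. DESeq2 on recovered reads called more genes of every kind, with 6, 9 and 3 members in the same order of comparisons. It called 3.48%, 3.07% and 1.39% of all genes, and its shares of genes with a mean of at least 100 were not computed. Its calls of *SLC39A12* and *SLC9A2* in both comparisons with RPE, and of *SLC38A3* in rRPE, fall on members with a group mean under 100. EdgeR called no member in any comparison. In what follows, called and passed refer to limma unless another tool is named. With limma the member shares were close to the background in all 3 comparisons. At such shares most of the classes and lists below would hold no called gene, so a class or list without a call is not set apart by it.

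Unadjusted p values of at most 0.05 were found for 29 members in rRPE against RPE (18% of members, 12% of all genes), for 34 in t-rRPE against RPE (21.1% and 12.4%) and for 21 in rRPE against t-rRPE (13% and 9.31%). Among the 10724 genes with a mean of at least 100, the like-for-like background, the shares were 14.5%, 15% and 10.8%. For the 142 members with at least 100 in every group they were 16.9%, 19.7% and 12%. The libraries of the groups did not overlap for 38 members in rRPE against RPE (23.6%, against 18.6% of all genes and 23.3% of genes with a mean of at least 100). They did not overlap for 34 in t-rRPE against RPE (21.1%, against 15.1% and 18.9%) and for 24 in rRPE against t-rRPE (14.9%, against 12.5% and 15%). Of the 142 members, 21.8%, 19.7% and 14.1% did not overlap in the same order of comparisons. The median log2FC of the members was 0.008, -0.013 and 0.046 in the same order of comparisons, and that of all genes was 0. A difference within 0.5 on the log2 scale was estimated for 84, 93 and 103 members (52.2%, 57.8% and 64%), against 64.8%, 63.8% and 67.6% of genes with a mean of at least 100. Of the 142 members, 56.3%, 61.3% and 69% lay within it.

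**Figure D1:**
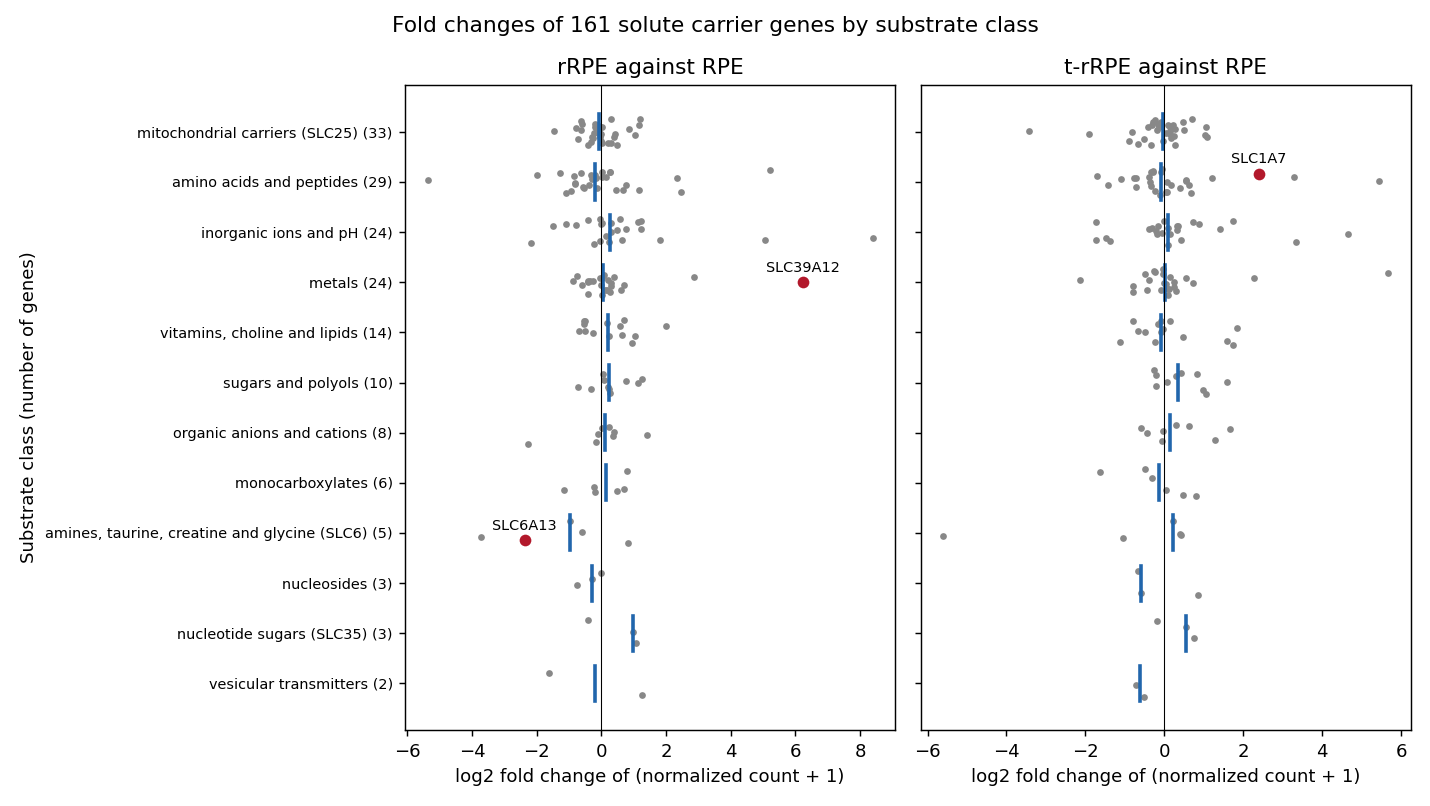
Each point is 1 of 161 solute carrier genes, placed by its log2FC in rRPE against RPE (left) and t-rRPE against RPE (right) and grouped by substrate class on the vertical axis. Blue bars are class medians and red points are genes called by limma: *SLC39A12* and *SLC6A13* in rRPE, *SLC1A7* in t-rRPE. The class medians lie between -0.98 (SLC6) and 0.99 (nucleotide sugars) in rRPE and between -0.61 (vesicular transmitters) and 0.56 (nucleotide sugars) in t-rRPE.

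Among carriers of amino acids and peptides, *SLC1A7* stood out in the eyes that had lost the retina without receiving FGF2. *SLC1A7* (ENSGALG00000010673) encodes EAAT5, a glutamate transporter with a chloride conductance that is best known from photoreceptors and bipolar cells. Its normalized counts were 4550, 2328 and 2714 in t-rRPE, against 590, 704 and 477 in RPE, and the lowest t-rRPE library stood above the highest RPE library. The log2FC was 2.39 (SE 0.42, limma adjusted p = 0.0355). In rRPE the counts were 1842, 554 and 806, which overlapped with RPE, and all 3 lay under every t-rRPE library (log2FC -1.71 for rRPE against t-rRPE, SE 0.42, adjusted p = 0.217). With any 1 of the 9 libraries left out, the call in t-rRPE was lost (adjusted p 0.0615 to 0.214, log2FC 2.11 to 2.59). The lens genes summed to 49478, 411082 and 202984 in t-rRPE replicates 1, 2 and 3, and the part of lens RNA in the values for *SLC1A7* was not tested.

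Limma called none of the other 28 genes of this class in any comparison, and the class medians were -0.20 in rRPE and -0.10 in t-rRPE against RPE. Of all 29 genes, 12 (41.4%) in rRPE and 15 (51.7%) in t-rRPE lay within 0.5 of RPE on the log2 scale. The shares of genes with a mean of at least 100 were 64.8% and 63.8%. DESeq2 called 1 of the other 28, *SLC38A3*, a glutamine carrier, lower in rRPE against RPE (adjusted p = 0.0458). It counted 80.2, 31.3 and 52.4 in rRPE and 131, 132 and 109 in t-rRPE, against 278, 149 and 210 in RPE. With a mean under 100 in rRPE, *SLC38A3* is 1 of the 19 members that passed the limit through the groups where they were high. *SLC7A5*, the light subunit of the LAT1 exchanger of large neutral amino acids, averaged 13353 ± 3305 in rRPE, 15906 ± 3900 in t-rRPE and 14958 ± 863 in RPE (SD, n = 3 each). *SLC7A3*, a cationic amino acid carrier, counted 7924, 7152 and 9404 in rRPE and 9689, 10569 and 5840 in t-rRPE, against 7093, 3016 and 2291 in RPE. Its rRPE libraries all lay above those of RPE (narrowly, 7152 against 7093), while 1 t-rRPE library lay inside the RPE range (log2FC 1.15 in rRPE, SE 0.36, adjusted p = 0.197). *SLC38A2* (SNAT2), a sodium-coupled carrier of small neutral amino acids whose transcript is known to respond to amino acid supply and osmolarity, counted 2881, 3175 and 2080 in rRPE and 2454, 2170 and 3951 in t-rRPE, against 4499, 5558 and 4279 in RPE. Every operated library was lower than every intact one, with log2FC values of -0.83 (SE 0.25, adjusted p = 0.179) in rRPE and -0.78 (SE 0.25, adjusted p = 0.245) in t-rRPE.

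The glutamate and cystine side of the class was mixed. *SLC1A6*, the glutamate transporter EAAT4, averaged 2952 ± 583 in rRPE, 2899 ± 1856 in t-rRPE and 5274 ± 170 in RPE. Every operated library of *SLC1A6* lay under every intact one, the nearest being 4817 in t-rRPE against 5127 in RPE. *SLC7A11*, the cystine and glutamate exchanger that feeds glutathione synthesis, averaged 742 ± 251 in rRPE, 1289 ± 427 in t-rRPE and 938 ± 69 in RPE. *SLC1A4*, an exchanger of alanine, serine and cysteine, averaged 544 ± 144 in rRPE, 515 ± 159 in t-rRPE and 693 ± 256 in RPE. None of these passed the test in any comparison. *SLC7A10*, a carrier of glycine and D-serine, was at 0 in 2 of 3 rRPE libraries and at 122 in the third, against 233, 75.6 and 674 in t-rRPE and 83.6, 435 and 237 in RPE, so that 1 rRPE library overlapped with both other groups (adjusted p = 0.35 against t-rRPE). Its mean in rRPE was under 100, so *SLC7A10* too passed the limit through the other groups. Of 11 genes listed for the amino acid response, which is known to raise several of these carriers, 5 were found. Limma called 0 of these 5 in either direction and 0 of 3 genes of the osmotic response. Of all genes, 1.03% were called in rRPE and 0.671% in t-rRPE against RPE, and both lists are too short to be compared with that. The log2FC values of the 5 ran from -2.08 to 1.00 in rRPE against RPE (lowest limma adjusted p = 0.0974). *ATF4*, the transcription factor of the amino acid response, averaged 6700 ± 1152 in rRPE, 7877 ± 960 in t-rRPE and 7866 ± 842 in RPE.

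In the SLC6 family of sodium- and chloride-coupled carriers, 1 of 5 genes was called, in rRPE against RPE. There, 1.03% of all genes and 1.35% of genes with a mean of at least 100 were called. A class of 5 genes is too small for its share to be compared with these. *SLC6A13* (ENSGALG00000012985) encodes GAT2, a carrier of GABA that also takes taurine, found in mammals in the leptomeninges, liver and kidney. Its counts were 168, 185 and 274 in rRPE, against 861, 1127 and 1236 in RPE, with no overlap. It fell by 2.37 on the log2 scale (SE 0.49, limma adjusted p = 0.0449). In t-rRPE the counts were 1029, 285 and 461, where replicate 1 lay within the RPE range and the others under it. The call in rRPE held without t-rRPE replicate 1 (adjusted p = 0.0252) or replicate 2 (0.0422) and was lost without any of the other 7 libraries, with adjusted p up to 0.224 and a log2FC between -2.59 and -2.23. Endothelial genes summed to 5459, 5098 and 4914 in rRPE, against 7019, 11979 and 12210 in RPE, and mesenchymal ones to 14564, 13081 and 12161, against 13076, 15421 and 18559; their part in the value for *SLC6A13* was not tested.

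No other SLC6 gene passed. *SLC6A6*, the taurine carrier by which the RPE supplies the retina, counted 420, 363 and 975 in rRPE, 926, 1741 and 1690 in t-rRPE and 705, 1090 and 1489 in RPE, with overlap in every comparison (rRPE against t-rRPE log2FC -1.40, SE 0.44, adjusted p = 0.35). *SLC6A15*, a neutral amino acid carrier, averaged 1296 ± 418 in rRPE, 2769 ± 1563 in t-rRPE and 2026 ± 727 in RPE. *SLC6A9*, the glycine carrier GLYT1, averaged 824 ± 297, 545 ± 204 and 446 ± 83 in that order.

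Among the 24 metal carriers, *SLC39A12* was the called gene. Of the 24, 17 lay within 0.5 on the log2 scale in rRPE and 16 in t-rRPE against RPE (70.8% and 66.7%, near the 64.8% and 63.8% of genes with a mean of at least 100). *SLC39A12* (ENSGALG00000008602) encodes ZIP12, a zinc importer known in mammals from the brain, and is also on the list of RPE-associated carriers given below. It had 831, 1283 and 1144 normalized counts in rRPE and 520, 429 and 1655 in t-rRPE, whereas it was nearly silent in intact RPE, with 36.5, 0 and 73.8. All 6 operated libraries stood above all intact ones. The mean in rRPE was 29.5-fold that in RPE, the log2FC was 6.24 (SE 1.30) and the limma adjusted p was 0.0483. In t-rRPE the log2FC was 5.67 (SE 1.30), and limma did not call it (adjusted p = 0.0957), although DESeq2 did (adjusted p = 0.000181), while rRPE and t-rRPE overlapped. As 1 RPE library was at 0, the size of the change depended on the offset and on that library (log2FC 4.34 without RPE replicate 2), and the rRPE call was lost without any 1 of the 9 libraries (adjusted p 0.0615 to 0.255).

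Other zinc carriers lay on either side of RPE. *SLC39A10* (ZIP10), an importer of the plasma membrane, counted 4188, 3658 and 4874 in rRPE and 3767, 3983 and 6123 in t-rRPE, against 6183, 8790 and 8698 in RPE, and every operated library was under every intact one. Its log2FC values were -0.89 (SE 0.22, adjusted p = 0.095) in rRPE and -0.79 (SE 0.22, adjusted p = 0.186) in t-rRPE. *SLC39A8* (ZIP8), which carries zinc and manganese, counted 109, 125 and 315 in t-rRPE, against 841, 612 and 715 in RPE, without overlap, and 534, 312 and 622 in rRPE, which overlapped with both (t-rRPE against RPE log2FC -2.13, SE 0.50, adjusted p = 0.104). The zinc exporter *SLC30A1* averaged 1215 ± 162 in rRPE, 897 ± 191 in t-rRPE and 1577 ± 466 in RPE. *SLC30A4*, which loads zinc into vesicles, averaged 4594 ± 1187 in rRPE, 4608 ± 761 in t-rRPE and 6064 ± 803 in RPE, and *SLC30A5*, which supplies zinc to the secretory pathway, averaged 5634 ± 551, 4838 ± 894 and 4380 ± 838. None of these 5 genes passed with limma, and DESeq2 called 1 of them, *SLC39A8*, in t-rRPE against RPE (adjusted p = 0.00598).

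Of 6 genes of zinc and iron handling outside the SLC families, 1 was called, in rRPE against RPE, where 1.03% of all genes were. The list is too short for its share to be compared with that. *MT3*, a metallothionein that binds zinc and copper, rose in rRPE, with 2137, 2504 and 2703 normalized counts, against 820, 723 and 488 in RPE (log2FC 1.88, SE 0.32, limma adjusted p = 0.0234), and t-rRPE lay at 942, 1104 and 1990. The rRPE and RPE libraries did not overlap, and the call held without t-rRPE replicate 1 or 3 and was lost without any other library (adjusted p up to 0.137). *FTH1*, the ferritin heavy chain, averaged 111118 ± 2481 in rRPE, 80740 ± 9346 in t-rRPE and 68699 ± 1879 in RPE, a difference between rRPE and RPE with an adjusted p of 0.0117 that did not reach the fold threshold. Of the iron carriers, *SLC40A1* (ferroportin, the iron exporter) averaged 550 ± 300 in rRPE, 510 ± 216 in t-rRPE and 682 ± 162 in RPE, and *SLC11A2* (DMT1, an importer of ferrous iron) 1463 ± 344, 1401 ± 177 and 961 ± 178. Every operated library of *SLC11A2* lay above every intact one. The copper importer *SLC31A1* averaged 2431 ± 154, 2007 ± 431 and 2383 ± 219 in the same order, and none of the 3 passed.

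**Figure D2:**
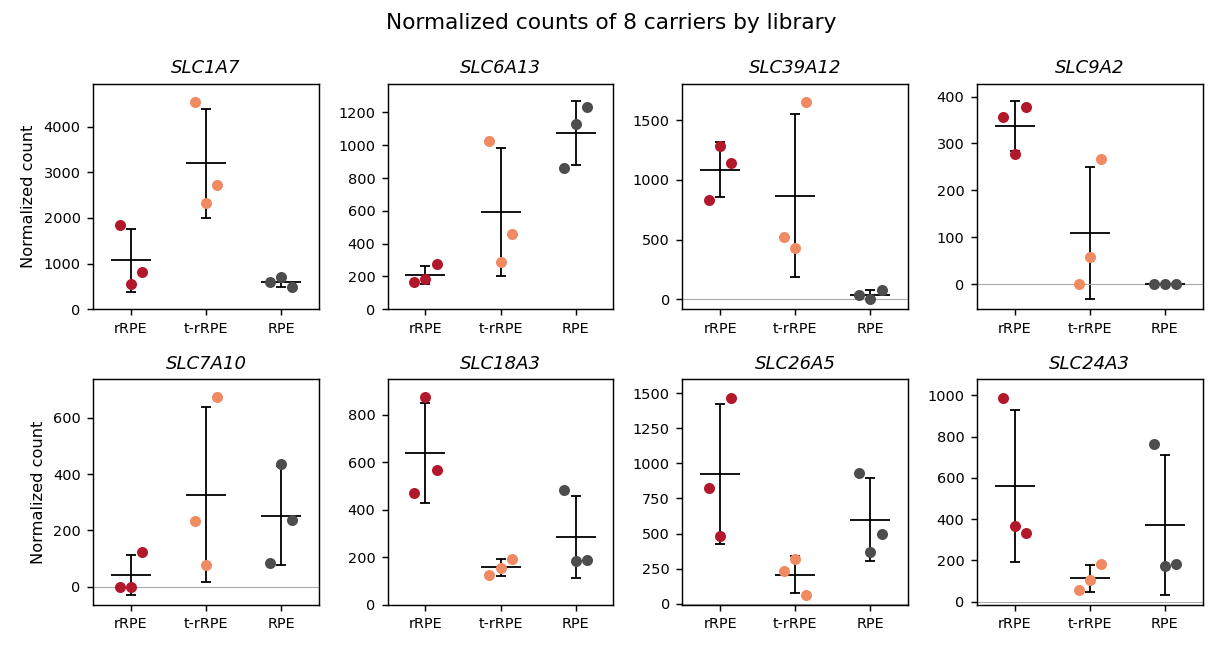
Normalized counts of 8 carriers in each library (points, replicates 1 to 3 from left to right in each group), with group mean (horizontal bar) and SD (error bar, n = 3), for rRPE, t-rRPE and RPE. *SLC1A7* is highest in the 3 t-rRPE libraries, *SLC6A13* lowest in rRPE, *SLC39A12* near 0 in RPE only and *SLC9A2* at 0 in all 3 RPE libraries; the lower panels show genes with wider overlap or with low t-rRPE counts, none of which was called.

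Limma called none of the 24 carriers of inorganic ions and protons. The libraries did not overlap with RPE for 6 of 24 in rRPE (25%) and 5 of 24 in t-rRPE (20.8%), close to the 23.3% and 18.9% of genes with a mean of at least 100. *SLC9A2* (ENSGALG00000016791), the sodium and proton exchanger NHE2, counted 356, 278 and 378 in rRPE and 0, 58.8 and 267 in t-rRPE and was at 0 in all 3 RPE libraries. Taking 3 reads per library as the limit that a count of 0 allows, rRPE was at least 134-fold higher than RPE. In t-rRPE replicate 1 was at 0 like RPE, and most of the group's counts came from replicate 3. DESeq2 called *SLC9A2* in t-rRPE against RPE (adjusted p = 7.24e-05), while limma did not. The limma adjusted p for rRPE was 0.055, just over the threshold. Under 10 other settings *SLC9A2* was not called in 7, with adjusted p from 8.46e-07 (DESeq2) to 0.107 (edgeR). With an offset of 5, limma called it (adjusted p = 0.0417). With 1 library left out, limma did not call it in 8 of 9 fits (adjusted p 0.0109 to 0.247, the highest without RPE replicate 2). *SLC9A2* entered the member list through the operated groups, since its mean over all libraries was 149.

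*SLC4A4* (NBCe1), the electrogenic sodium bicarbonate cotransporter of the RPE, was low in both operated groups. It counted 330, 116 and 252 in rRPE and 352, 305 and 229 in t-rRPE, against 1105, 681 and 1195 in RPE, and neither operated group overlapped with RPE. The log2FC values were -2.18 (SE 0.49, adjusted p = 0.0644) in rRPE and -1.73 (SE 0.49, adjusted p = 0.183) in t-rRPE, so neither passed with limma, while DESeq2 called both (adjusted p = 0.000701 in rRPE and 0.01 in t-rRPE). *SLC4A7* (NBCn1), the electroneutral carrier of the family, lay the other way in t-rRPE, with 3073, 1438 and 1919 against 1062, 655 and 663 in RPE (log2FC 1.40, SE 0.34, limma adjusted p = 0.117, DESeq2 adjusted p = 0.00447), while rRPE had 1505, 905 and 1281 and overlapped with RPE. *SLC4A5* (NBCe2) counted 952, 526 and 1001 in rRPE, 632, 37.3 and 583 in t-rRPE and 327, 0 and 40.7 in RPE, with rRPE above RPE in every library (log2FC 5.06, SE 1.76, adjusted p = 0.247). That value depended on the RPE library at 0, and was 2.77 without RPE replicate 2 and 2.75 with edgeR. The anion exchanger *SLC4A2* averaged 1199 ± 330 in rRPE, 1067 ± 154 in t-rRPE and 1383 ± 31 in RPE.

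Chloride carriers and other ion carriers differed in their spread. *SLC12A2* (NKCC1), the sodium, potassium and chloride cotransporter on the apical side of the RPE, counted 7693 ± 3544 in rRPE, 14532 ± 7122 in t-rRPE and 13501 ± 5534 in RPE, with overlap throughout. *SLC12A4* (KCC1), a potassium and chloride cotransporter, averaged 1944 ± 95 in rRPE, 1823 ± 611 in t-rRPE and 1414 ± 215 in RPE. Its rRPE libraries (2014, 1982 and 1837) all lay above those of RPE (1193, 1426 and 1623), without a call. *SLC9A8*, a proton exchanger of the Golgi, averaged 2439 ± 802, 2341 ± 540 and 2426 ± 346. *SLC4A1*, the anion exchanger of red blood cells, averaged 1260 ± 688 in rRPE, 1018 ± 536 in t-rRPE and 2538 ± 888 in RPE. It is itself part of the erythroid sums given above, and its count in RPE captures cannot be assigned to RPE cells.

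Among genes that work with the ion carriers, carbonic anhydrase *CA2* fell in rRPE. Of 12 tested, limma called 1 higher and 1 lower in rRPE against RPE, and *CA2* was the lower one. Of all 16535 genes, 112 were called higher and 58 lower (1.03% in either direction). A list of 12 genes is too short for its share to be compared with these. *CA2* (ENSGALG00000030781), which makes bicarbonate from CO2 in the cytosol, had 49532, 38580 and 76670 normalized counts in rRPE, against 99851, 124265 and 125221 in RPE, and fell by 1.14 on the log2 scale (SE 0.21, limma adjusted p = 0.0307). Its t-rRPE counts of 67038, 77815 and 82785 also lay under RPE without passing. The call in rRPE held without rRPE replicate 3 (adjusted p = 0.0379) and was lost without any other library (up to 0.239). *ATP1B1*, a beta subunit of the sodium pump, averaged 23766 ± 1862 in rRPE, 32269 ± 7483 in t-rRPE and 42639 ± 2221 in RPE, a difference that reached an adjusted p of 0.0362 in rRPE but not the fold threshold.

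Of 12 such partner genes tested, *SLC9A3R1* (NHERF1) was the other one called. Of all genes, 1.03% were called in rRPE against RPE and 0.0544% in rRPE against t-rRPE. *SLC9A3R1* encodes a PDZ scaffold that holds several carriers at the apical membrane and is not itself a carrier. It rose in rRPE both against RPE (6202, 11393 and 11492 in rRPE, 3193, 2380 and 2743 in RPE, log2FC 1.76, SE 0.27, limma adjusted p = 0.0131) and against t-rRPE (2104, 1412 and 2148, log2FC 2.33, SE 0.27, adjusted p = 0.0133). All 3 rRPE libraries stood above the other 6. With 1 library left out, the call against RPE held without any of the 3 t-rRPE libraries and was lost otherwise (adjusted p up to 0.12), and that against t-rRPE was lost in all 9 cases (0.0746 to 0.156).

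**Figure D3:**
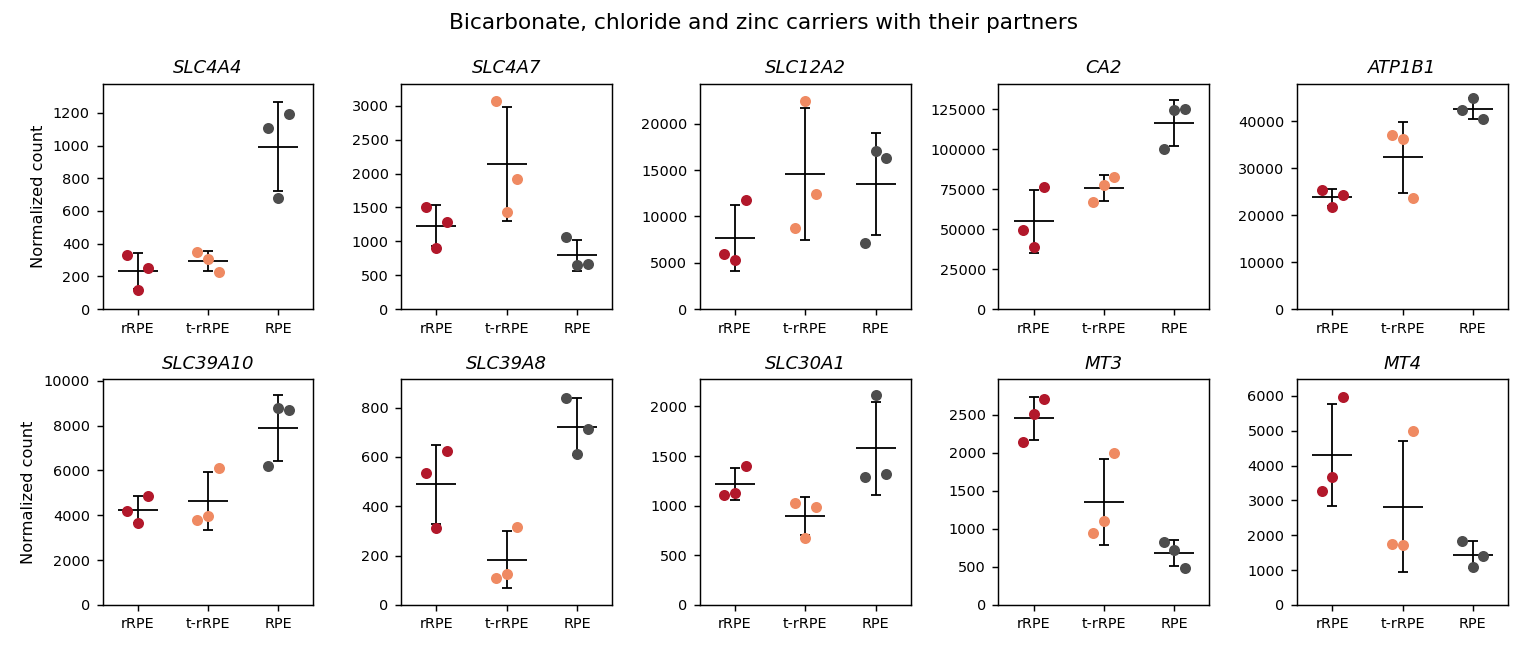
Normalized counts by library for bicarbonate and chloride carriers with *CA2* and *ATP1B1* (upper row) and zinc carriers with metallothioneins (lower row), in rRPE, t-rRPE and RPE; points are libraries, bars group means and error bars SD (n = 3). *SLC4A4* and *CA2* are lower in every operated library than in any intact one, *SLC39A10* likewise, and *MT3* is higher in rRPE than in RPE; of the genes shown only *CA2* and *MT3* were called, both in rRPE against RPE.

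None of the carriers that bring glucose to the RPE and take lactate from it passed the test. *SLC2A1* (GLUT1), the glucose carrier on both faces of the RPE, counted 43408, 51581 and 67523 in rRPE, 40190, 41704 and 54426 in t-rRPE and 50091, 52991 and 53047 in RPE. The groups overlapped in every comparison, and the 95% interval of the log2 difference ran from -0.33 to 0.39 in rRPE and from -0.57 to 0.15 in t-rRPE against RPE. *SLC16A1* (MCT1), a proton-coupled carrier of lactate and pyruvate, counted 46970, 53559 and 84857 in rRPE, 59339, 43088 and 48501 in t-rRPE and 61438, 72320 and 76925 in RPE. Its t-rRPE libraries lay under those of RPE without overlap, but the difference did not pass (adjusted p = 0.373). *SLC16A8* (MCT3), the lactate carrier restricted to the RPE and choroid plexus, averaged 6160 ± 2161 in rRPE, 8091 ± 4454 in t-rRPE and 6720 ± 346 in RPE, and *SLC16A3* (MCT4) averaged 2872 ± 1171, 3467 ± 895 and 1980 ± 501. *BSG* (basigin), the chaperone of these lactate carriers, averaged 100411 ± 41885, 129620 ± 51871 and 84644 ± 2126 in the same order, and none of the 5 genes was called.

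In the sugar class, 10 of 10 genes were uncalled, with class medians of 0.23 in rRPE and 0.35 in t-rRPE against RPE. *SLC2A8* (GLUT8), a glucose carrier of intracellular membranes, counted 1856, 1934 and 2680 in rRPE and 2046, 2383 and 2276 in t-rRPE, against 1195, 1185 and 1419 in RPE, so that all operated libraries lay above all intact ones. Its log2FC values were 0.75 (SE 0.22, adjusted p = 0.152) and 0.82 (SE 0.22, adjusted p = 0.159). *SLC37A4*, the carrier of glucose 6-phosphate into the endoplasmic reticulum, averaged 6146 ± 919 in rRPE, 6833 ± 968 in t-rRPE and 5111 ± 516 in RPE. Of 12 genes of glucose and lactate metabolism, 1 was called, *ARRDC3*. Of all genes, 1.03% were called in rRPE and 0.671% in t-rRPE against RPE. *ARRDC3* encodes an arrestin-domain protein of the same family as TXNIP, which restrains glucose uptake. It rose in rRPE (1209, 1534 and 1811, against 360, 157 and 337 in RPE, log2FC 2.48, SE 0.43, limma adjusted p = 0.0236) and in t-rRPE (1135, 2184 and 852, log2FC 2.26, SE 0.43, adjusted p = 0.0445). No operated library overlapped with RPE. The rRPE call held only without t-rRPE replicate 2 when a library was left out, and the t-rRPE call in no such case (adjusted p up to 0.145 and 0.188).

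Limma called 0 of the 14 vitamin, choline and lipid carriers, and DESeq2 called *SLC5A6* (adjusted p = 0.00394) and *SLC44A1* (adjusted p = 0.0138) in t-rRPE against RPE. In rRPE against RPE 3 of the 14 (21.4%) lay within 0.5 on the log2 scale, and 5 (35.7%) did not overlap. Genes with a mean of at least 100 had shares of 64.8% and 23.3%. In t-rRPE against RPE the class had 7 (50%) and 2 (14.3%), against 63.8% and 18.9%. *SLC19A1*, the reduced folate carrier, counted 7086, 6850 and 7593 in rRPE, 9755, 10487 and 8110 in t-rRPE and 11812, 10370 and 9439 in RPE. The rRPE libraries were under all others, closely spaced, and the log2FC values were -0.55 (SE 0.15, adjusted p = 0.114) against RPE and -0.39 (SE 0.15, adjusted p = 0.473) against t-rRPE. *SLC46A1*, the proton-coupled folate carrier, averaged 94 ± 41 in rRPE, 136 ± 44 in t-rRPE and 148 ± 63 in RPE. *SLC5A6*, which carries biotin and pantothenate, counted 432, 567 and 472 in t-rRPE, against 1079, 981 and 1123 in RPE (log2FC -1.12, SE 0.29, adjusted p = 0.154), and its rRPE counts of 597, 821 and 815 lay between the other groups without touching either. *SLC44A1*, a choline carrier, counted 517, 1287 and 753 in t-rRPE, against 223, 249 and 336 in RPE, without overlap (log2FC 1.58, SE 0.45, adjusted p = 0.189). Its rRPE counts of 689, 339 and 579 also lay above every RPE library (narrowly, 339 against 336). *SLC27A1*, a fatty acid carrier, averaged 7223 ± 557 in rRPE, 6184 ± 1842 in t-rRPE and 6175 ± 1193 in RPE, and *SLC23A2*, the sodium-coupled carrier of vitamin C, 673 ± 248, 430 ± 374 and 423 ± 296.

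Limma called no gene of the small classes. The nucleoside carrier *SLC29A1* (ENT1) counted 2594, 1793 and 2966 in rRPE and 2740, 2388 and 2991 in t-rRPE, against 5130, 4153 and 3184 in RPE. Neither operated group overlapped with RPE (rRPE log2FC -0.77, SE 0.24, adjusted p = 0.195). *SLC29A4*, a carrier of monoamines, counted 792, 479 and 594 in rRPE, against 1288, 1034 and 1048 in t-rRPE (log2FC -0.88, SE 0.34, adjusted p = 0.501), and RPE lay at 920, 522 and 497. Of the carriers that move nucleotide sugars into the Golgi, *SLC35A1*, for the sugar donor of sialic acid, averaged 2022 ± 265, 2337 ± 292 and 2812 ± 1114, and *SLC35A5* 1315 ± 274, 989 ± 279 and 715 ± 368. The vesicular ATP carrier *SLC17A9* averaged 180 ± 145 in rRPE, 282 ± 174 in t-rRPE and 334 ± 99 in RPE.

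Mitochondrial carriers were the largest class, with medians of -0.08 in rRPE and -0.05 in t-rRPE against RPE. Limma called 0 of 33 in each comparison, where 1.03% of all genes were called in rRPE and 0.671% in t-rRPE against RPE. Against RPE, 23 of 33 genes (69.7%) lay within 0.5 on the log2 scale in each operated group. These shares were near the 64.8% and 63.8% of genes with a mean of at least 100. *SLC25A6*, an exchanger of ADP and ATP, averaged 84368 ± 11834 in rRPE, 88783 ± 12310 in t-rRPE and 96795 ± 2545 in RPE, and the phosphate carrier *SLC25A3* averaged 34990 ± 2115, 30787 ± 3026 and 34218 ± 969. For *SLC25A3* the 95% interval of the log2 difference from RPE ran from -0.21 to 0.27 in rRPE and from -0.40 to 0.08 in t-rRPE. *SLC25A6* shares long stretches of sequence with *SLC25A5* and *SLC25A4*, so the split of reads among these 3 genes is uncertain. *SLC25A46*, an outer membrane protein of mitochondrial fission, counted 1568, 1048 and 1046 in rRPE and 1200, 1248 and 1191 in t-rRPE, against 419, 670 and 712 in RPE, with every operated library above every intact one. Its log2FC values were 1.03 (SE 0.30, adjusted p = 0.153) in rRPE and 1.05 (SE 0.30, adjusted p = 0.19) in t-rRPE, and DESeq2 called both (adjusted p = 0.0273 and 0.0339). *SLC25A15*, the ornithine carrier of the urea cycle, counted 1286, 1734 and 1341 in t-rRPE, against 1890, 2196 and 2832 in RPE (log2FC -0.66, SE 0.22, adjusted p = 0.27). Of 3 genes of mitochondrial biogenesis tested, 0 were called.

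**Figure D4:**
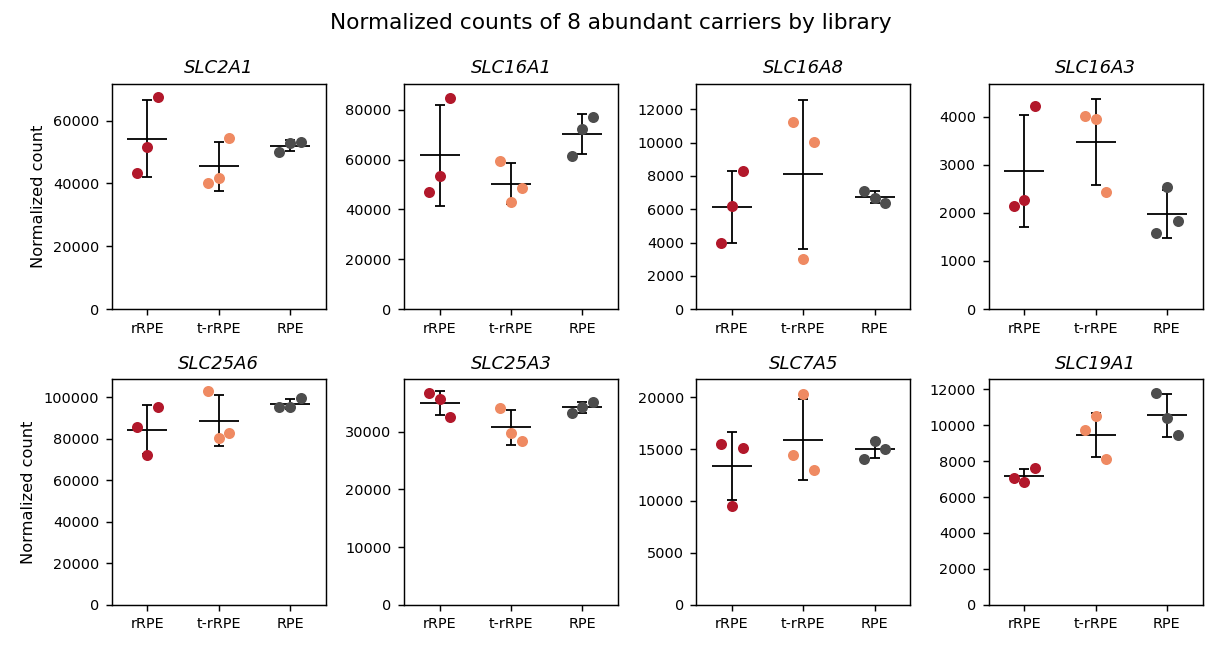
Normalized counts by library for 8 abundant carriers, with mean and SD (n = 3), in rRPE, t-rRPE and RPE. *SLC2A1*, *SLC16A8*, *SLC25A3* and *SLC7A5* overlap in all groups, *SLC16A1* is lower in the t-rRPE libraries than in RPE without passing the test, and *SLC19A1* is lowest in the 3 rRPE libraries.

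The direct comparison of rRPE with t-rRPE set eyes with the FGF2 bead against eyes without one. With no member called by limma, the genes with the lowest p values are given by their counts. *SLC10A7*, a member of the bile acid carrier family, counted 3099, 2866 and 2611 in rRPE, against 1526, 1100 and 1857 in t-rRPE (log2FC 0.96, SE 0.25, adjusted p = 0.222), and RPE lay at 2829, 1953 and 1982. *SLC18A3*, which loads acetylcholine into vesicles, counted 473, 875 and 570 in rRPE, against 125, 155 and 194 in t-rRPE (log2FC 1.98, SE 0.53, adjusted p = 0.263), with 484, 183 and 190 in RPE. In both genes every rRPE library stood above every t-rRPE library.

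*SLC26A5* (prestin), an anion carrier relative known from cochlear hair cells, had 827, 482 and 1466 in rRPE, against 234, 321 and 62.6 in t-rRPE (log2FC 2.31, SE 0.66, adjusted p = 0.284), and *SLC24A3*, a potassium-dependent exchanger of sodium and calcium, had 989, 366 and 332, against 55.3, 104 and 185 (log2FC 2.26, SE 0.75, adjusted p = 0.383). In RPE, *SLC26A5* had 931, 368 and 500 and *SLC24A3* 766, 172 and 181. For both genes rRPE overlapped with RPE. *SLC25A24*, a calcium-regulated carrier of ATP-magnesium and phosphate, counted 4667, 3271 and 2980 in rRPE, against 1795, 1115 and 3097 in t-rRPE, where 1 t-rRPE library overlapped (log2FC 0.96, SE 0.33, adjusted p = 0.398). The 3 members that DESeq2 called in this comparison were *SLC18A3*, *SLC26A5* and *SLC1A7*, and limma gave 21 members an unadjusted p of at most 0.05.

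Carriers that are known from the RPE of other species had been listed as 25 symbols. Of these, 18 were members, *SLC26A4* lay under the mean of 100, and *SLC1A3*, *SLC22A8*, *SLC26A7*, *SLC6A20*, *SLC5A3* and *SLC3A2* were found under no such symbol and were not analysed here. Of the 19 in the table, 1 was called in rRPE against RPE (where 1.03% of all genes were), 0 in t-rRPE and 0 between them. The called gene was *SLC39A12*, which had entered through the operated groups. The list had median log2FC values of -0.23 in rRPE and -0.09 in t-rRPE against RPE. An unadjusted limma p of at most 0.05 was found for 31.6% of the list in each of these 2 comparisons. The shares were 12% and 12.4% of all genes, and 14.5% and 15% of genes with a mean of at least 100. Their summed normalized count was 120278, 135804 and 194835 in rRPE, 144782, 134911 and 150238 in t-rRPE and 149881, 174823 and 176238 in RPE. These sums are carried mostly by *SLC2A1* and *SLC16A1*, and the groups overlapped.

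The median coefficient of variation of a member was 31.6% in rRPE, 30.7% in t-rRPE and 28.8% in RPE (leaving out *SLC9A2*, at 0, in RPE). A member was at 0 in at least 1 library of the group for 5 genes in rRPE, 4 in t-rRPE and 8 in RPE.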

How the data were processed

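Poly(A) RNA of laser-captured RPE was sequenced in 9 libraries. Per the study's methods, the authors trimmed reads (Trim Galore 0.6.1, cutadapt 1.18), aligned them to GRCg6a with STAR 2.7.3, counted them per gene with StringTie 2.0.4 without strand and normalized them with DESeq2 1.22.2. The deposited signal is this normalized count. Reads of overlapping antisense genes cannot be told apart.

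Every value was a whole multiple of the worth of 1 read (share 1, tolerance 1e-06), so reads were recovered, 26167206 to 45563924 per library. As the values are normalized, the main test was limma 3.58.1 (R 4.3.3) with trend on log2(normalized count + 1), over genes with a summed value of at least 20, in 1 model of all 9 libraries. Counting limits took 3 reads as the floor and cover counting error only. The scripts were tested on simulated data. Alternatives were offsets of 0.5 and 5, no filter, a mean of at least 10, quantile and upper-quartile scaling, a replicate block, only the 6 samples compared, each library left out, and edgeR 4.0.16 and DESeq2 1.42.0 on recovered reads.

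The members, classes and lists were chosen with earlier results of these data known. Named were the members called, the 6 with the lowest p in each direction of each comparison, the 2 most abundant of each class, the RPE-associated carriers, the genes next to the limit, and genes of the partner and marker lists. *SLC1A6*, *SLC4A1*, *SLC6A9*, *SLC11A2*, *SLC12A4*, *SLC30A1*, *SLC30A5*, *SLC31A1*, *SLC38A3* and *SLC40A1* were added after their values were seen. Some genes that this rule or the classes take in are not reported here. Promoter motifs were not analysed here. Tables and figures were made in Python 3.11.15 with pandas 2.3.3, numpy 2.4.6 and matplotlib 3.10.9.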

Additional observations from a re-analysis of the deposited data

How the results depend on the processing

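Over 43 pairs of a named gene and a comparison, each computed under 19 other settings, 705 of 817 values kept their direction and their side of the threshold, 95 kept the direction but lost the call, 17 gained a call and 0 turned round. Most of these pairs were not called in the main fit and so had no call to lose. The 705 values are thus no measure of how stable the calls were. Each pair called in the main fit lost its call in at least 6 of the 9 fits with a library left out. Members called in rRPE against RPE were 2, and 3 with an offset of 5. They were 1 with an offset of 0.5, 1 with a mean of at least 10 and 1 with upper-quartile rescaling. They were 0 with edgeR, 6 with DESeq2 and 0 to 2 with a library left out. In t-rRPE against RPE they were 1, and 2 with an offset of 5, 0 with only the 6 samples compared, 0 with edgeR, 9 with DESeq2 and 0 to 1 with a library left out. In rRPE against t-rRPE they were 0, and 3 with DESeq2. All genes called in rRPE against RPE were 170, and 101 with edgeR, 575 with DESeq2, 231 with only the 6 samples compared and 0 to 187 with a library left out. In t-rRPE against RPE they were 111, and 48 with edgeR, 507 with DESeq2, 0 with only the 6 samples compared and 0 to 109 with a library left out. In rRPE against t-rRPE they were 9, and 230 with DESeq2, 0 with only the 6 samples compared and 0 to 1 with a library left out. Settings with fewer samples have fewer degrees of freedom, and in rRPE against RPE their counts of all genes lay on both sides of the main fit. The cause was not tested.

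With the replicate number as a block (replicate block), 64 genes were called in t-rRPE against RPE and 1 member in rRPE against RPE, where *SLC39A12* had an adjusted p of 0.0382 and *SLC6A13* one of 0.0691. Same-numbered libraries deviated from their group means with correlations of -0.0307 to 0.0605, under the limit of 0.1 set here for treating them as paired. Of the 9 libraries, 7 correlated best with one of their own number. Whether same-numbered libraries share a batch was not tested.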

Other observations

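Beside the 161 carriers, 26 solute carrier genes have symbols of another form, among them the organic anion polypeptides (SLCO), and limma called 1 of them. That call was in rRPE against RPE, where 1.03% of all genes were called. *SLCO4A1* (ENSGALG00000005460), a carrier of organic anions that include thyroid hormones, rose in rRPE, with 7120, 7032 and 6861 normalized counts, against 1912, 950 and 1754 in RPE (log2FC 2.25, SE 0.33, limma adjusted p = 0.0117). In t-rRPE it counted 5728, 2701 and 6298, above every RPE library, with a limma adjusted p of 0.0545. The call in rRPE held without any 1 of the t-rRPE libraries and was lost without any 1 of the rRPE or RPE libraries (adjusted p up to 0.117).

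Other genes of these families did not pass, and those given here were picked after their values were seen. *SLCO2A1*, a prostaglandin carrier, counted 0, 0 and 38.0 in rRPE and 3.26, 0 and 0 in t-rRPE, against 47.1, 126 and 68.4 in RPE, without overlap between either operated group and RPE. *SLCO3A1* averaged 705 ± 141 in rRPE and 346 ± 299 in t-rRPE, against 226 ± 140 in RPE (SD, n = 3 each). *SLC35F3* averaged 198 ± 241 in rRPE and 945 ± 560 in t-rRPE, against 135 ± 191 in RPE. *SLC35B1* averaged 9156 ± 1705 in rRPE and 7598 ± 649 in t-rRPE, against 8751 ± 1903 in RPE.

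Of the 56 carriers with a mean under 100, limma called 0 in each comparison. An unadjusted p of 0.05 or less was found for 6 of them (5 higher, 1 lower) in rRPE against RPE, for 6 (3 higher, 3 lower) in t-rRPE against RPE and for 3 (all higher) in rRPE against t-rRPE. These are 10.7%, 10.7% and 5.36% of them, against 12%, 12.4% and 9.31% of all genes. Their summed normalized counts were 1329 to 2601 in rRPE, 1971 to 2237 in t-rRPE and 1785 to 2227 in RPE, and the groups overlapped.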
